A study of Mus musculus with 24 samples.

Results

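Blood vessels of transplanted mouse mammary tumours were followed through 30 marker genes, 20 of endothelial cells and 10 of pericytes, out of 47729 genes in the table. The members were taken by gene symbol from 2 lists of cell markers. The endothelial members are Pecam1, Cdh5, Tie1, Tek, Emcn, Egfl7, Cldn5, Esam, Robo4, Erg, Sox17, Sox18, Eng, Vwf, Ptprb, Clec14a, Cd93, Ecscr, S1pr1 and Mmrn2. The pericyte members are Rgs5, Cspg4, Kcnj8, Abcc9, Notch3, Mcam, Pdgfrb, Higd1b, Ndufa4l2 and Des. Spontaneous tumours of B6SJL-Tg(Wnt1)1Hev/J mice, in which the mouse mammary tumour virus (MMTV) promoter drives Wnt1, were cut into pieces and grown in C57BL/6J hosts. When tumours reached about 200 mm3, on day 1, the hosts were assigned to vehicle or to E7386 by mouth. E7386 is known as a modulator of the interaction between β-catenin and its coactivator CBP. The 6 groups of 4 libraries were vehicle, 25 mg/kg and 50 mg/kg on day 4, after 3 days of dosing 2 times daily, and the same 3 treatments on day 8, after 7 days. All libraries are of whole MMTV-Wnt1 tumour tissue, and the transgene, the host strain and the starting size are common to all groups. Nothing in the labels tells whether each of the 4 libraries is from a different mouse, so the p-values cover only variation among these samples, some of which may be technical.

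Endothelial cells line the vessel wall and are held together by adhesion molecules such as VE-cadherin and PECAM-1. Pericytes wrap capillaries from outside and are recruited by PDGF-B, which endothelial cells release and which binds the receptor PDGFRβ on the pericyte. Tumours depend on new vessels, and tumour vessels are known for uneven pericyte cover. In a transplanted tumour, vessels grow in largely from the host.

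All 30 members passed the filter on low values, which asked for at least 1 TPM (a relative transcript abundance corrected for length, with the same total in every library) in at least 4 libraries. No member was listed at 0 in any of the 24 libraries. Mean levels over all libraries ran from 2.08 TPM for Sox17 to 87.3 TPM for Eng among endothelial members, and from 4.02 TPM for Cspg4 to 82.0 TPM for Rgs5 among pericyte members. The epithelial gene Krt14 averaged 969 TPM and the contractile gene Acta2 1047 TPM over the same libraries. Between 14496 and 15127 genes reached 1 TPM per library. The mean log2(TPM + 1) over the 20 endothelial members was highest in vehicle day 8 replicate 4 (4.26) and lowest in 50 mg/kg day 8 replicate 2 (2.91), followed by vehicle day 8 replicate 1 (2.98). The vehicle group of day 8 therefore held both extremes of its kind, and results that rest on replicates 1 and 4 are given with and without them. In bulk tissue, fewer cells of a type and less RNA per cell cannot be told apart.

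**Figure D1:**
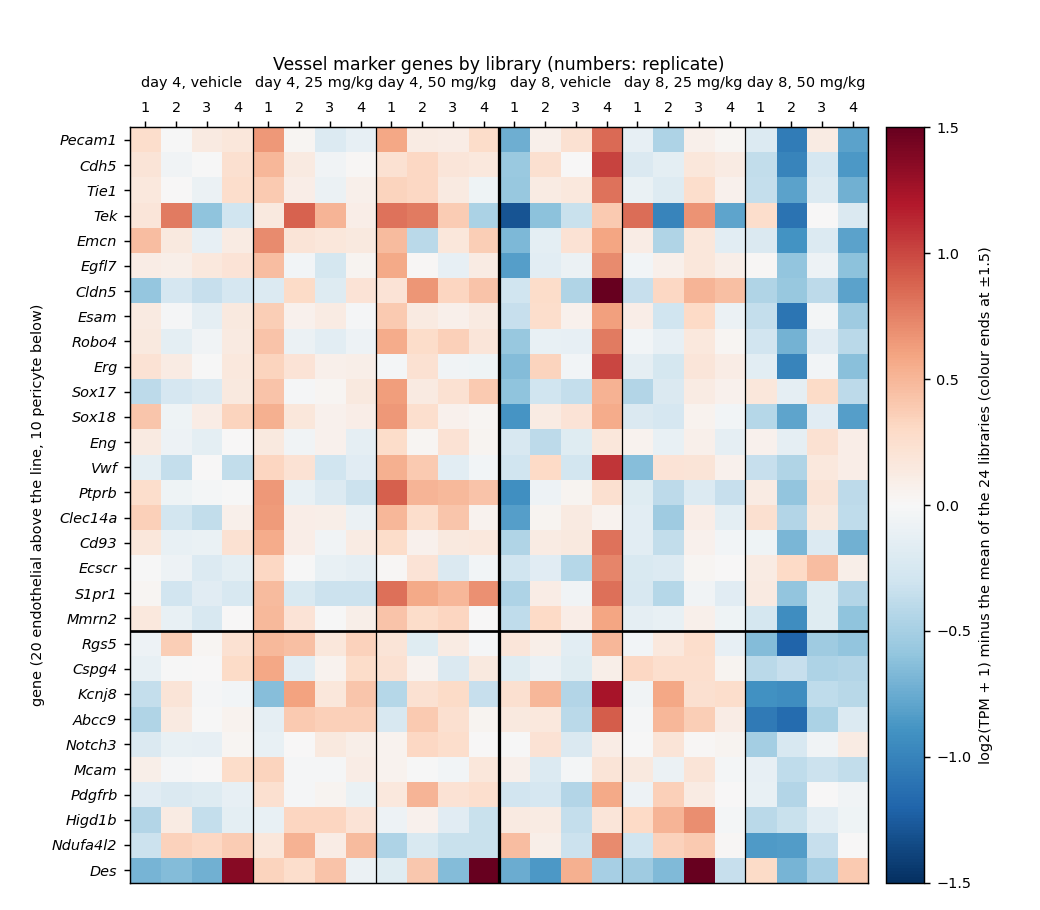
Heat map of the 30 members in 24 libraries, coloured by log2(TPM + 1) minus the gene's mean over all libraries, with colour ends at ±1.5. Endothelial members form the upper block and pericyte members the lower, groups run from vehicle to 50 mg/kg within day 4 and then day 8, and vehicle day 8 replicate 4 is the library with the highest endothelial level (4.26).

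After 7 days at 50 mg/kg, 2 pericyte genes were lower than in vehicle. Rgs5, which encodes a regulator of G-protein signalling that marks pericytes, averaged 47.5 ± 9.36 TPM at 50 mg/kg and 89.5 ± 17.4 TPM in vehicle (SD, n = 4 each). Abcc9, the sulfonylurea receptor subunit of the pericyte potassium channel, averaged 6.34 ± 2.33 TPM at 50 mg/kg and 13.1 ± 5.51 TPM in vehicle. Both genes fell, Rgs5 without overlap of the groups and Abcc9 with overlap, which made 2 of 10 pericyte and 0 of 20 endothelial members called (adjusted p under 0.05 by limma), beside 2.78% of all genes tested. The comparison asks how the higher dose changed the tumour at the later time.

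Rgs5 had 49.98, 33.75, 54.26 and 52.17 TPM in 50 mg/kg replicates 1 to 4, and 89.90, 84.19, 71.06 and 112.65 TPM in the vehicle replicates. Every library at 50 mg/kg lay below every vehicle library. The log2 fold change on the log2(TPM + 1) scale was -0.90 (SE 0.15, 95% interval -1.21 to -0.59), with an adjusted p = 0.00168 by limma over all genes. The call held without each of the 8 libraries in turn (adjusted p from 0.00148 to 0.00771). It ended when the 2 groups were fitted alone (-0.90, adjusted p = 0.140).

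Abcc9 had 4.60, 4.25, 7.38 and 9.14 TPM in 50 mg/kg replicates, and 11.87, 12.00, 7.79 and 20.86 TPM in vehicle replicates. The groups overlapped, because vehicle replicate 3 lay below 50 mg/kg replicate 4. Its log2 fold change was -0.92 (SE 0.24, adjusted p = 0.0410 by limma). The call ended without vehicle replicate 1 (adjusted p = 0.0842), 2 (0.0893) or 4 (0.0647, fold change -0.69). It ended also without treated replicate 1 (0.0955), 2 (0.0883) or 3 (0.0637). Further, it ended with no filter (0.0744) and with the 2 groups fitted alone (0.336).

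Kcnj8 encodes the pore subunit that joins the Abcc9 product in this channel. It had 4.29, 4.20, 6.65 and 6.46 TPM at 50 mg/kg, and 10.80, 13.02, 6.32 and 22.43 TPM in vehicle. Vehicle replicate 3 lay among the treated libraries, and the log2 fold change of -1.04 (SE 0.29) had an adjusted p = 0.0537 by limma. The ratio of Abcc9 to Kcnj8 was 1.15 ± 0.18 at 50 mg/kg and 1.05 ± 0.15 in vehicle (SD, n = 4 each). Both genes lie on the minus strand of chromosome 6 in GRCm38, Abcc9 at chr6:142587862-142702315 and Kcnj8 at chr6:142564837-142571614, 16247 bp apart with 0 annotated genes between them.

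Cspg4, which encodes the proteoglycan NG2 on the pericyte surface, had 2.73, 2.90, 2.59 and 2.64 TPM at 50 mg/kg, and 3.36, 3.66, 3.34 and 4.27 TPM in vehicle. The groups did not overlap, yet the log2 fold change of -0.32 had an adjusted p = 0.196 by limma. In this comparison 4.92% of all genes tested lay wholly below vehicle, and Rgs5 and Cspg4 were the 2 of 30 members that did.

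The other pericyte genes gave smaller or more scattered differences. Pdgfrb, the receptor for the recruiting ligand, had 31.77, 24.91, 34.32 and 32.87 TPM at 50 mg/kg, and 27.83, 28.57, 25.10 and 51.30 TPM in vehicle. Its groups overlapped over most of their range (log2 fold change -0.05, 95% interval -0.38 to 0.28, adjusted p = 0.907 by limma). The ratio of Pdgfrb to Rgs5 was 0.659 ± 0.0527 at 50 mg/kg (0.630 to 0.738) and 0.364 ± 0.0633 in vehicle (0.310 to 0.455; SD, n = 4 each). That ratio is a description of these libraries, and no test was made of it. Log2 fold changes were -0.74 for Ndufa4l2 (adjusted p = 0.0660), an inhibitor of respiratory chain activity, and -0.31 for the adhesion molecule gene Mcam (0.0821). They were -0.26 for Higd1b and -0.19 for the receptor gene Notch3, whose signal maintains mural cells.

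By limma, 438 of 15736 genes passed in this comparison, with 2.02% of all genes called lower and 0.763% higher. Among called genes 27.4% were higher, against 47.8% with TMM scaling (trimmed mean of M-values) and 37.7% after quantile normalization. The median log2 fold change was -0.32 over the pericyte members and -0.46 over the endothelial members, beside -0.02 over all genes tested. Negative values stood in 9 of 10 pericyte members, with Des positive, and in 14 of 20 endothelial members. At an unadjusted p under 0.05 there were 6 pericyte members, 11 endothelial members and 17.9% of all genes.

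**Figure D2:**
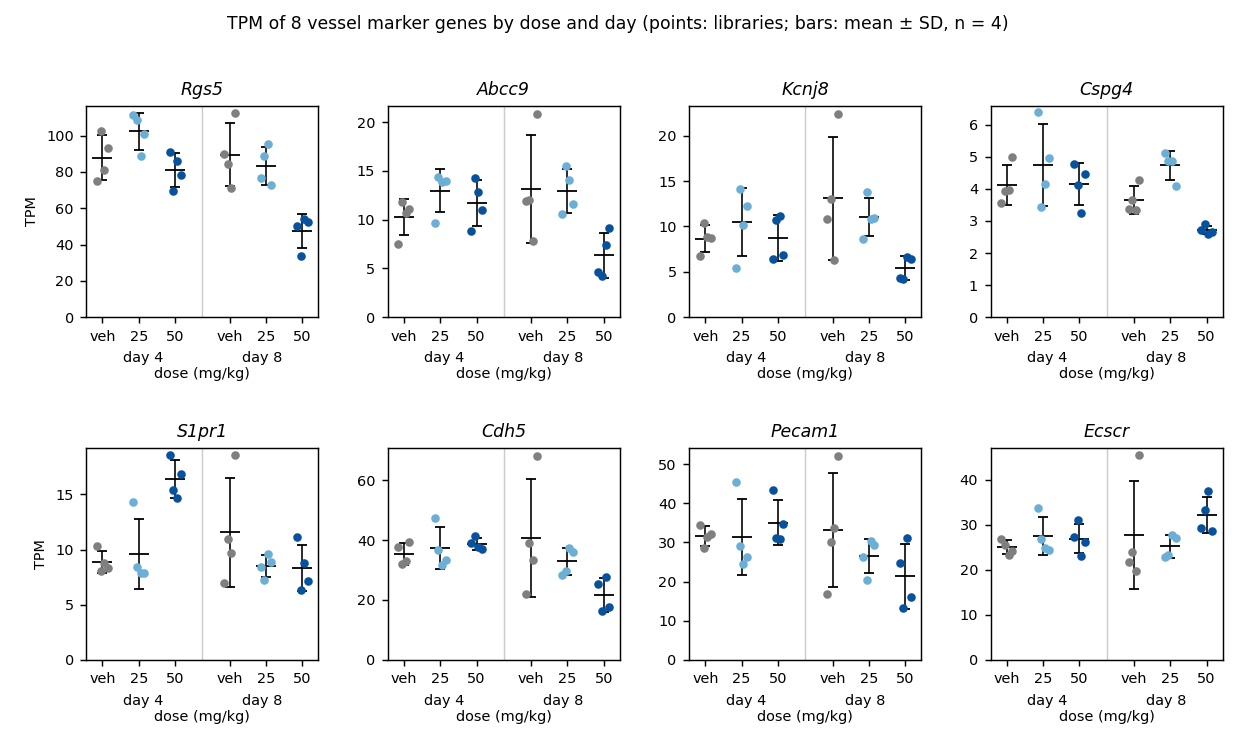
Levels in TPM of Rgs5, Abcc9, Kcnj8, Cspg4, S1pr1, Cdh5, Pecam1 and Ecscr by dose and day, with points for libraries and bars for mean ± SD (n = 4). On day 8 the 4 libraries at 50 mg/kg lie at 33.75 to 54.26 TPM for Rgs5, below the vehicle libraries at 71.06 to 112.65 TPM.

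The promoters of the 3 pericyte genes called in any comparison are shown because these genes fell at 50 mg/kg on day 8, Cspg4 against 25 mg/kg. Each covers 250 bases before to 50 bases after the gene start in RefSeq annotation of GRCm38.p6, on the gene's strand, at chr1:169655251-169655550 (plus) for Rgs5, chr6:142702225-142702524 (minus) for Abcc9 and chr9:56864854-56865153 (plus) for Cspg4. Capitals mark matches on either strand to CAGGAA (ETS core), TGGGAA (RBPJ core, the Notch effector), GGGCGG (GC box), CTTTGAT (TCF/LEF core, the β-catenin partner) and ACGTG (hypoxia response core).
Rgs5: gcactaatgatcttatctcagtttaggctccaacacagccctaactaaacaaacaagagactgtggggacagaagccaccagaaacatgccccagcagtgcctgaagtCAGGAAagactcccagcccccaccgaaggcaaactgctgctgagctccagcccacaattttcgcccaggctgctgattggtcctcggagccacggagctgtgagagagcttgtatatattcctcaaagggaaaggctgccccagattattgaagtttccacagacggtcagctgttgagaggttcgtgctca
Abcc9: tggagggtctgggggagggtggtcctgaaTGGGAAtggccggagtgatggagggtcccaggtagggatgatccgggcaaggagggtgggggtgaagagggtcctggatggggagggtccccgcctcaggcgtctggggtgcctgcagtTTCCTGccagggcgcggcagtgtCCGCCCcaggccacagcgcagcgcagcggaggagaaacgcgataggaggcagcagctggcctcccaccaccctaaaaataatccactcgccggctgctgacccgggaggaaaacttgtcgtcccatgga
Cspg4: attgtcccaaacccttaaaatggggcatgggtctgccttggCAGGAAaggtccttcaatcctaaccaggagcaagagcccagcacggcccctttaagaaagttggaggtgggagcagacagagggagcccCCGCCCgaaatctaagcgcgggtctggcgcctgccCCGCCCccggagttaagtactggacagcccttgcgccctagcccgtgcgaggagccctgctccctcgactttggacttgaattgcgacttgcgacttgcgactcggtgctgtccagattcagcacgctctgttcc
Each of the 3 windows held a match to CAGGAA, as did 30.6% of 32851 promoters of the same length. The Abcc9 window also held TGGGAA, found in 25.6% of all promoters, and the Abcc9 and Cspg4 windows held GGGCGG, found in 35.7%. No window of the 3 held CTTTGAT, found in 3.73% of all promoters, or ACGTG, found in 19.6%. Of the 30 members, 16 were matched in this promoter set, with 20 entries, and CAGGAA stood in 13 of these and CTTTGAT in 1. A match describes letters in the window and is not a binding site.

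After 7 days at 50 mg/kg, 14 of 20 endothelial members had negative log2 fold changes against vehicle and none passed, with vehicle libraries that spread widely. Cdh5, which encodes VE-cadherin of endothelial junctions, averaged 21.7 ± 5.63 TPM at 50 mg/kg and 40.6 ± 19.6 TPM in vehicle (SD, n = 4 each). Pecam1, the adhesion molecule CD31, averaged 21.3 ± 8.22 TPM at 50 mg/kg and 33.2 ± 14.6 TPM in vehicle. No endothelial member had groups that did not overlap, beside 6.49% of all genes.

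Cdh5 had 25.33, 16.17, 27.65 and 17.70 TPM in 50 mg/kg replicates, and 22.11, 39.12, 33.18 and 68.09 TPM in vehicle replicates. Vehicle replicate 1 fell within the treated range and the other 3 lay above it (log2 fold change -0.79, SE 0.22, adjusted p = 0.0570 by limma). Pecam1 had 24.66, 13.30, 31.27 and 16.03 TPM at 50 mg/kg, and 16.81, 30.12, 33.59 and 52.16 TPM in vehicle. Its groups overlapped broadly (-0.58, adjusted p = 0.255). With limma's library weights the Pecam1 value turned to 0.0836 and the endothelial median to 0.0027.

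Junction and surface genes had similar values. The matrix protein gene Mmrn2 was at -0.64 (adjusted p = 0.0521), the junction gene Esam at -0.65 (0.0660) and the angiopoietin co-receptor gene Tie1 at -0.66 (0.0821) by limma. The tight junction gene Cldn5 had 3.72, 3.35, 3.92 and 2.69 TPM at 50 mg/kg, and 4.24, 6.80, 3.71 and 17.28 TPM in vehicle (-0.81, adjusted p = 0.132). Among transcription factor genes of endothelium, Erg was at -0.61, Sox18 at -0.56 and Sox17 at 0.17. Among receptors, the C-type lectin Cd93 was at -0.58, the angiopoietin receptor Tek at 0.20 and the vascular phosphatase Ptprb at 0.01. S1pr1 had 11.12, 6.35, 8.78 and 7.16 TPM at 50 mg/kg, and 7.01, 10.93, 9.69 and 18.58 TPM in vehicle, with broad overlap (-0.37, adjusted p = 0.370). Among the rest were the guidance receptor Robo4 at -0.38, the sialomucin Emcn at -0.53, the secreted Egfl7 at -0.23 and the clotting factor Vwf at -0.34. Clec14a was at 0.04.

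Eng and Ecscr stood at positive values. Ecscr, which encodes an endothelial surface protein, had 29.31, 33.26, 37.42 and 28.70 TPM at 50 mg/kg, and 21.67, 23.94, 19.72 and 45.51 TPM in vehicle. All treated libraries lay above 3 of the 4 vehicle libraries, and vehicle replicate 4 lay above them all (0.28, adjusted p = 0.418 by limma). The TGF-β coreceptor gene Eng was at 0.22 (adjusted p = 0.254). The ratio of Ecscr to Pecam1 was 1.67 ± 0.622 at 50 mg/kg and 0.886 ± 0.295 in vehicle (SD, n = 4 each), given as a description.

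The endothelial values depended on vehicle replicates 1 and 4. Without vehicle replicate 1, 8 members were called lower: Cdh5, Tie1, Esam, Erg, Sox18, Cd93, Mmrn2 and Rgs5, and the endothelial median was -0.66. Without vehicle replicate 4, Rgs5 was called lower and Ecscr (0.54, adjusted p = 0.00956) and Eng (0.33, 0.0331) higher, and the endothelial median was -0.23. Without vehicle replicate 3, 4 members passed, Rgs5, Kcnj8, Abcc9 and Ndufa4l2. Without vehicle replicate 2 or without 50 mg/kg replicate 2, Rgs5 alone passed. Over all genes, leaving out each library of either group in turn gave 180 to 1175 called genes, against 438 with all libraries. The counts of called members thus stand beside a share of all genes that changed as well.

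Other cell types in the same libraries were read from marker lists. The summed level of the 6 epithelial genes was 2827 to 4542 TPM at 50 mg/kg and 2638 to 3240 TPM in vehicle. Krt14 was the most abundant gene in that sum. Of the 6, 2 rose, beside 0.763% of all genes, the basal keratin genes Krt14 (0.84, adjusted p = 0.0103) and Krt5 (0.51, 0.0288) by limma. The other 4 had negative log2 fold changes, and the median of the 6 was -0.04. The 10 macrophage genes summed to 1018 to 1687 TPM at 50 mg/kg and 516 to 1473 TPM in vehicle, with 0 of 10 called. The 9 fibroblast genes summed to 412 to 2154 TPM at 50 mg/kg and 467 to 1854 TPM in vehicle, also with 0 called. Of 7 genes shared by smooth muscle and myoepithelium, 0 were called. None of these 4 lists had a gene listed at 0. The 20 endothelial members summed to 234 to 348 TPM at 50 mg/kg and 235 to 545 TPM in vehicle, and the 10 pericyte members to 180 to 246 TPM at 50 mg/kg and 250 to 385 TPM in vehicle. The pericyte sums did not overlap, with 246 TPM as the highest at 50 mg/kg and 250 TPM as the lowest in vehicle, and Rgs5 was the most abundant gene in them. The mean log2(TPM + 1) of the same 10 members did overlap, at 3.60 to 4.09 at 50 mg/kg and 4.05 to 4.65 in vehicle. The part of the epithelial genes in these results was not tested.

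**Figure D3:**
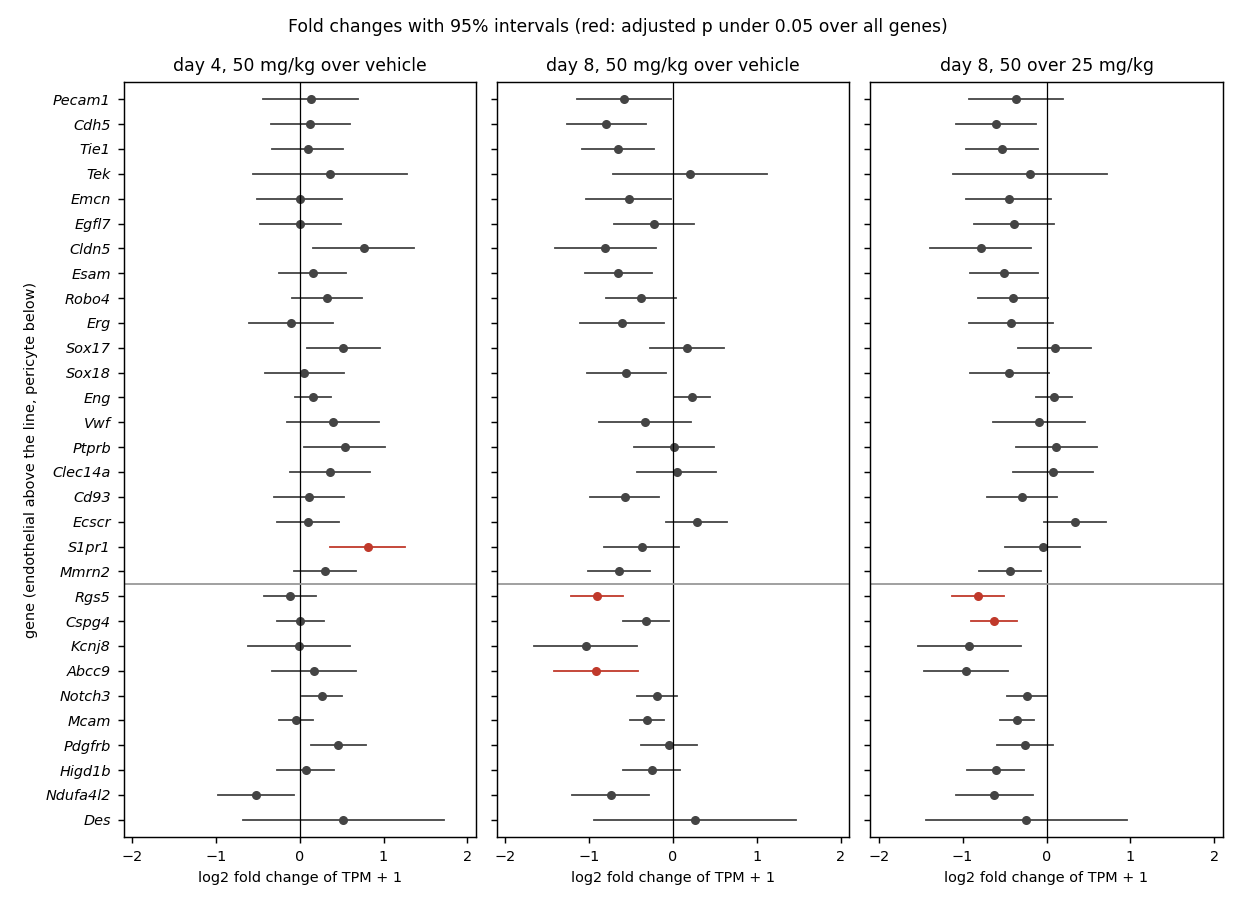
Log2 fold changes of the 30 members with 95% intervals for 50 mg/kg over vehicle on day 4, 50 mg/kg over vehicle on day 8 and 50 over 25 mg/kg on day 8, in red where the adjusted p was under 0.05. S1pr1 is red on day 4 (0.81), Rgs5 (-0.90) and Abcc9 (-0.92) are red against vehicle on day 8, and Rgs5 (-0.81) and Cspg4 (-0.62) are red against 25 mg/kg.

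Set against the lower dose on day 8, 50 mg/kg had negative log2 fold changes in all 10 pericyte members, and 2 of them passed. Rgs5 averaged 47.5 ± 9.36 TPM at 50 mg/kg and 83.4 ± 10.3 TPM at 25 mg/kg, and Cspg4 2.71 ± 0.136 TPM at 50 mg/kg and 4.74 ± 0.444 TPM at 25 mg/kg (SD, n = 4 each). Both fell (1.08% of all genes were called by limma). The comparison asks whether the doses differed at the later time. Its 25 mg/kg libraries are other libraries than those of vehicle, while the 50 mg/kg libraries are shared with the comparison above. The estimate of spread, from all libraries, is shared too, so the 2 comparisons are not independent.

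Rgs5 had 76.86, 88.67, 95.22 and 72.89 TPM at 25 mg/kg, all above the 50 mg/kg libraries (33.75 to 54.26 TPM). Its log2 fold change, 50 over 25 mg/kg, was -0.81 (SE 0.15, adjusted p = 0.0103 by limma). The call ended without 25 mg/kg replicate 3 (-0.75, adjusted p = 0.0503) and with the 2 groups fitted alone (0.0666). Cspg4 had 5.13, 4.86, 4.86 and 4.10 TPM at 25 mg/kg, all above the 50 mg/kg libraries (2.59 to 2.90 TPM). Its log2 fold change was -0.62 (SE 0.13, adjusted p = 0.0199 by limma). That call ended without 25 mg/kg replicate 1 (0.0571), 2 (0.0671) or 3 (0.0736), and when treated replicate 3 (0.0711) or 4 (0.0536) of the 50 mg/kg group was left out. Between libraries of a group, Cspg4 followed the other pericyte members little (median r 0.06, with group means taken off).

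By limma, 170 genes passed, with 0.852% of all genes called lower and 0.229% higher, and 0 of 20 endothelial members were among them. Of called genes 21.2% were higher, against 48.3% with TMM scaling and 38.3% after quantile normalization. Groups lay apart with the 50 mg/kg libraries lower for 6 pericyte members, Abcc9, Cspg4, Higd1b, Kcnj8, Mcam and Rgs5. The same held for 5 endothelial members, Cdh5, Cldn5, Mmrn2, Robo4 and Tie1, beside 6.04% of all genes. Ecscr lay apart with the 50 mg/kg libraries higher (28.70 to 37.42 TPM at 50 mg/kg, 22.82 to 27.62 TPM at 25 mg/kg), beside 3.82% of all genes. None of these passed except Rgs5 and Cspg4. Abcc9 was at -0.96 (adjusted p = 0.0516), and it passed under 6 of 10 alternatives (adjusted p from 0.00488 to 0.102), among them TMM scaling (0.0439), quantile normalization (0.0421), a pseudocount of 0.1 (0.0473) and a filter at 5 TPM (0.0443). Higd1b was at -0.61 (0.0643), Mcam at -0.36 (0.0702, passing under 3 of 10 alternatives), Kcnj8 at -0.92 (0.117) and Cdh5 at -0.60 (0.184).

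Median log2 fold changes were -0.61 over pericyte members, -0.38 over endothelial members and -0.03 over all genes. Krt14 (0.85, adjusted p = 0.0160) and Krt5 (0.59, 0.0192) were higher at 50 mg/kg here as well by limma, beside 0.229% of all genes. Of the 6 epithelial genes, 3 had positive and 3 negative log2 fold changes, with a median of 0.01. The macrophage genes summed to 1018 to 1687 TPM at 50 mg/kg and 693 to 962 TPM at 25 mg/kg. Of these 10 genes, 6 lay wholly above 25 mg/kg, beside 3.82% of all genes, with 0 called. The part of these cells in the pericyte values was not tested. Leaving out replicate 1 or 2 of 25 mg/kg, or replicate 3 of 50 mg/kg, left 1 called member, and leaving out replicate 3 of 25 mg/kg left 0.

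After 3 days at 50 mg/kg 0 of 10 pericyte members passed in either direction and 1 of 20 endothelial members rose, beside 9.26% of all genes called by limma. S1pr1, the receptor for sphingosine 1-phosphate that stabilises vessels, averaged 16.4 ± 1.73 TPM at 50 mg/kg and 8.89 ± 0.999 TPM in vehicle (SD, n = 4 each). This contrast addresses the early response to the higher dose.

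S1pr1 had 18.57, 15.39, 14.66 and 16.84 TPM in 50 mg/kg replicates, and 10.32, 8.07, 8.82 and 8.37 TPM in vehicle replicates. Every treated library lay above every vehicle library, with a log2 fold change of 0.81 (SE 0.21, 95% interval 0.37 to 1.26, adjusted p = 0.0208 by limma). The call held in 10 of 10 alternatives that keep all 8 libraries of these groups (adjusted p from 0.00238 to 0.0403). It ended on leaving out replicate 3 (0.0508) or 4 (0.0543) of vehicle or replicate 1 of 50 mg/kg (0.0564), where 0 members were called. The ratio of S1pr1 to Pecam1, as a description, was 0.470 ± 0.0290 at 50 mg/kg and 0.280 ± 0.0160 in vehicle (SD, n = 4 each). S1pr1 lies on the minus strand at chr3:115710433-115715072.

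Other members lay apart without passing. Cldn5 had 6.44, 9.17, 7.09 and 7.71 TPM at 50 mg/kg, and 3.31, 4.41, 4.06 and 4.44 TPM in vehicle (0.76, adjusted p = 0.0990 by limma). Ptprb had 6.94, 5.05, 4.96 and 4.74 TPM at 50 mg/kg, and 4.13, 3.09, 3.17 and 3.24 TPM in vehicle (0.54, adjusted p = 0.142). Both genes separated the groups fully. Pdgfrb had 38.36, 49.31, 39.99 and 41.09 TPM at 50 mg/kg, and 30.22, 29.41, 29.89 and 31.28 TPM in vehicle (0.46, adjusted p = 0.0690), again without overlap, and Robo4 did not overlap either (0.32, adjusted p = 0.316). With S1pr1 these made 4 endothelial members and 1 pericyte member that lay wholly above vehicle, beside 10.4% of all genes, while none lay wholly below, beside 7.98%.

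Rgs5 had 90.85, 69.43, 86.01 and 78.29 TPM at 50 mg/kg on day 4, and 75.02, 102.60, 80.85 and 93.06 TPM in vehicle. The groups overlapped throughout (-0.11, adjusted p = 0.682 by limma). Pecam1 had 43.41, 31.27, 30.92 and 34.72 TPM at 50 mg/kg, and 34.57, 28.48, 31.47 and 32.24 TPM in vehicle. Cdh5 had 39.07, 41.32, 37.52 and 37.01 TPM at 50 mg/kg, and 37.82, 31.84, 32.85 and 39.36 TPM in vehicle. Both pairs of groups overlapped, at 0.13 for each gene. Abcc9 had 8.85, 14.28, 12.80 and 10.96 TPM at 50 mg/kg on day 4, and 7.52, 11.77, 10.63 and 11.09 TPM in vehicle (0.17, adjusted p = 0.690). Cspg4 had 4.79, 4.13, 3.25 and 4.47 TPM at 50 mg/kg, and 3.57, 3.93, 3.97 and 5.01 TPM in vehicle (0.01, 95% interval -0.27 to 0.29). Neither gene separated the groups on day 4. Ndufa4l2 was the most negative member (-0.52, adjusted p = 0.136), and Sox17 was at 0.52 (0.119), Vwf at 0.40 and Notch3 at 0.26.

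By limma, 1457 genes passed on day 4, with 4.95% of all genes called higher and 4.31% lower. Of called genes 53.5% were higher, against 42.9% after quantile normalization. Median log2 fold changes were 0.16 over endothelial members and 0.04 over pericyte members (-0.03 after quantile normalization), beside 0.03 over all genes. Positive values stood in 18 of 20 endothelial and 6 of 10 pericyte members. At an unadjusted p under 0.05 there were 4 endothelial and 3 pericyte members, beside 25.9% of all genes. Of 10 macrophage genes, all positive, Mertk passed (0.70, adjusted p = 0.0260), and the list summed to 879 to 2173 TPM at 50 mg/kg and 591 to 1361 TPM in vehicle. The part of macrophages in the S1pr1 value was not tested.

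S1pr1 had 14.32, 8.41, 7.84 and 7.86 TPM at 25 mg/kg on day 4, where replicate 1 stood alone among 4. The 50 mg/kg libraries (14.66 to 18.57 TPM) lay above all of these, with a log2 fold change of 0.75 (adjusted p = 0.0741 by limma). Without 25 mg/kg replicate 1 the gene passed (0.94, adjusted p = 0.0196). In this comparison of doses on day 4, 2.15% of genes were called, 0 of 30 members among them, with 2 endothelial and 2 pericyte members at an unadjusted p under 0.05. S1pr1 was the 1 member wholly above, beside 5.42% of all genes, and Ndufa4l2 the 1 wholly below (-0.66, adjusted p = 0.143), beside 4.47%. Rgs5 was at -0.33 (adjusted p = 0.306).

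The lower dose gave no called gene against vehicle on either day. By limma 0 of 15736 genes passed on day 4 and 0 on day 8, which is 0% each, with 4.6% and 2.97% at an unadjusted p under 0.05. Of the members, Higd1b on day 4 (0.39, adjusted p = 0.914) and Cspg4 (0.30) and Higd1b (0.35) on day 8 reached that unadjusted level. Rgs5 was at 0.22 on day 4 (95% interval -0.09 to 0.53) and at -0.09 on day 8 (-0.40 to 0.22), and Abcc9 at 0.04 on day 8 (-0.46 to 0.54). S1pr1 was at 0.06 on day 4 (-0.38 to 0.51). These intervals do not exclude changes of moderate size in either direction. Cldn5 and Pdgfrb lay wholly above vehicle on day 4, beside 3.06% of genes, and no member lay apart in either direction on day 8, beside 1.63%. Pericyte medians were 0.21 on day 4, positive in 10 of 10 members, and 0.04 on day 8, and endothelial medians 0.08 and -0.11.

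The libraries at 25 mg/kg gave these levels for the pericyte genes. Rgs5 had 111.37, 108.60, 88.89 and 100.78 TPM on day 4, where 2 of the 4 lay above every vehicle library (75.02 to 102.60 TPM). Abcc9 had 9.65, 14.37, 13.91 and 14 TPM on day 4 and 10.56, 15.54, 14.03 and 11.60 TPM on day 8, and on both days these overlapped with vehicle. Cspg4 had 6.41, 3.44, 4.14 and 4.96 TPM on day 4, a range that held all 4 vehicle libraries (3.57 to 5.01 TPM). Pdgfrb had 40.62, 33.89, 35.13 and 31.85 TPM on day 4 and 32.46, 44.30, 37.55 and 34.41 TPM on day 8. Its day 8 libraries all lay above 3 of the 4 vehicle libraries (25.10 to 28.57 TPM) and below the other (51.30 TPM).

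Among the endothelial genes at 25 mg/kg, Pecam1 had 45.58, 29.17, 24.61 and 26.25 TPM on day 4 and 26.25, 20.44, 30.34 and 29.24 TPM on day 8. Cdh5 had 47.27, 36.55, 31.82 and 33.45 TPM on day 4 and 28.35, 29.78, 37.42 and 36.11 TPM on day 8. Both genes had their highest day 4 value in replicate 1. S1pr1 had 8.39, 7.24, 9.62 and 8.86 TPM at 25 mg/kg on day 8, within the vehicle range (7.01 to 18.58 TPM).

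Between the vehicle libraries of day 8 and day 4, 0 genes passed by limma (0%), and 11.1% of genes had an unadjusted p under 0.05, Cldn5 being the only member (0.61, adjusted p = 0.443). Rgs5 was at 0.02, with 89.5 ± 17.4 TPM on day 8 and 87.9 ± 12.4 TPM on day 4 (SD, n = 4 each).

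The effect of 50 mg/kg on day 8 minus that on day 4 was tested as an interaction. By limma 226 genes passed, or 1.44%, with 1.09% of all genes lower (24.3% of those called were higher, against 40.9% with TMM scaling and 37.6% after quantile normalization), and 0 of 30 members did. The largest differences in members were -1.57 for Cldn5 (SE 0.41, adjusted p = 0.0553), -1.18 for S1pr1 (SE 0.30, 0.0510) and -1.10 for Abcc9 (0.107). Rgs5 was at -0.79 (SE 0.21, 0.0598) and Mmrn2 at -0.95 (0.0595). Endothelial members had a median of -0.65 and pericyte members of -0.39, beside -0.06 over all genes, and 8 and 5 of them had an unadjusted p under 0.05, beside 16.1% of genes. Of 10 alternatives that leave out no library of the 4 groups, S1pr1 passed in 4 and Cldn5 in 3. The changes of Rgs5, Abcc9 and S1pr1 were called on 1 day only, and the difference between days did not pass for them. When a day 8 library was left out of this interaction, the count of members with a called difference between days was 4 without vehicle replicate 1 (Cdh5, Cldn5, S1pr1, Mmrn2), 5 without vehicle replicate 3, 1 without vehicle replicate 4 (Cldn5), 1 without 50 mg/kg replicate 1 (S1pr1) and 2 without 50 mg/kg replicate 4 (Rgs5, Abcc9). Over all genes, leaving out each of the 16 libraries in turn gave 92 to 601 called genes, against 226 with all libraries. The share of all genes thus changed along with these counts.

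Endothelial members varied together between libraries, and most pericyte members did not follow them. With group means taken off, Pecam1 correlated with 14 of 19 other endothelial members and with 0 of 10 pericyte members at an adjusted p under 0.05 (permutation within groups, adjusted over all 15735 other genes), beside 1.9% of all genes, 1.62% with a positive r. With Spearman's rho, 12 of 19 endothelial and 0 of 10 pericyte members passed. The median Pearson r with Pecam1 was 0.88 over endothelial members, 0.089 over pericyte members and 0.04 over all genes. An r of 0.8 or more stood in 13 endothelial members, beside 0.534% of genes, and an r of 0.5 or more in 17 endothelial members and 1 pericyte member, beside 8.64%. Without the 2 libraries farthest from the Pecam1 median, vehicle day 8 replicates 4 and 1, the medians were 0.80 and 0.0067. Within day 4 they were 0.71 and -0.16, and within day 8 0.91 and 0.26.

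Cd93 followed Pecam1 most closely, with r = 0.93 (permutation p = 3e-05, adjusted p = 0.0169) and Spearman's rho = 0.94 (permutation p = 1e-05, the smallest that 100000 permutations can give, adjusted p = 0.00414) over 24 libraries. Without the 2 farthest libraries its r was 0.88. Cdh5 had r = 0.90 (permutation p = 7e-05, adjusted p = 0.0203) and rho = 0.82 (0.00025, adjusted 0.0213), and 0.84 without the 2 libraries. S1pr1 had r = 0.90 with Pecam1, and 0.96 within day 4 and 0.89 within day 8. Within groups the S1pr1 level thus moved with Pecam1, while at 50 mg/kg on day 4 its level stood above that of vehicle.

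A few endothelial genes followed less. Cldn5 had r = 0.43 with Pecam1 (adjusted p = 0.712, permutation) and -0.03 without the 2 farthest libraries. Tek had r = 0.48, Vwf 0.59, Ecscr 0.63 and Eng 0.66, none of them called. Among pericyte members Pdgfrb (0.50), Mcam (0.47) and Rgs5 (0.43) had the highest r, and Notch3 (-0.25) the lowest. Kcnj8 and Abcc9 had -0.04 and 0.01 over all 24 libraries, -0.85 and -0.83 within day 4, and 0.34 and 0.28 within day 8. In each day 4 group, replicate 1 had the highest Pecam1 and the lowest Kcnj8 and Abcc9 values. The day 4 r without these libraries was not computed.

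Pairs of members give the same picture as a description. The median r was 0.745 over 190 endothelial pairs, 0.328 over 45 pericyte pairs and 0.192 over 200 mixed pairs. The closest pairs were Cdh5 and Erg (0.96) in endothelium and Kcnj8 and Abcc9 (0.90) in pericytes. Abcc9 had 0.88 with Ndufa4l2, 0.76 with Notch3 and 0.70 with Higd1b, and Kcnj8 had 0.74 with Ndufa4l2. Rgs5 and Ndufa4l2 had 0.67 and Cspg4 and Mcam 0.64, and Pdgfrb was closest to the endothelial gene Ecscr (0.77). Cspg4 had a median r of 0.06 with the other pericyte members and 0.34 with the endothelial members, and Mcam 0.03 and 0.41. Notch3 had 0.33 and -0.07, and an r of 0.56 with the mean log2 level of the epithelial genes. Which cells gave the Notch3 level was not tested.

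**Figure D4:**
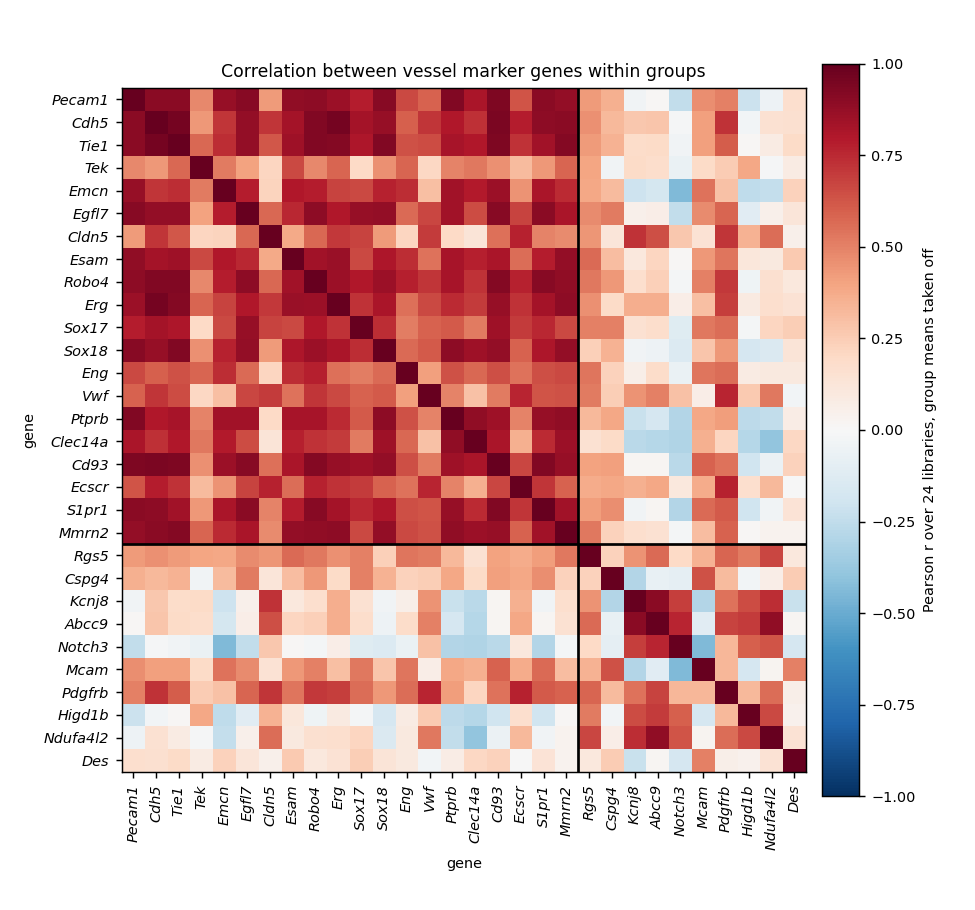
Pearson r between the 30 members over 24 libraries, with the mean of each group taken off. The endothelial block is mostly of high r (median 0.745), and the pericyte block is lower (median 0.328). Within the pericyte block, Kcnj8, Abcc9, Ndufa4l2, Notch3 and Higd1b have an r of 0.60 to 0.90 with each other.

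The mean log2 level of the endothelial members moved with that of other lists between libraries of a group. The r was 0.90 with 20 vessel signalling genes, 0.91 with genes of arteries, veins and capillaries, 0.74 with macrophage genes and 0.71 with fibroblast genes. It was -0.71 with epithelial genes, and 0.35 with the pericyte members, or 0.12 without vehicle day 8 replicate 4. That library and vehicle day 8 replicate 1, the extremes of the group, had mean log2 levels of 6.03 and 4.68 for macrophage, 6.61 and 4.65 for fibroblast and 8.63 and 8.96 for epithelial genes. Values of TPM sum to a fixed total in each library, so these lists share that total, and the part of tissue composition in the endothelial values was not tested.

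Des, the muscle intermediate filament gene often used for pericytes, tracked skeletal muscle genes more than the other members. It had 7.48, 11.76, 5.13 and 32.78 TPM at 50 mg/kg on day 4, and 4.95, 5.11, 4.85 and 23.84 TPM in vehicle. On day 8 it had 10.69, 4.94, 5.81 and 11.60 TPM at 50 mg/kg, and 4.74, 4.31, 12.92 and 5.79 TPM in vehicle. In both vehicle groups 1 library stood far above the other 3. At 25 mg/kg it had 11.14, 10.56, 11.89 and 8.07 TPM on day 4 and 5.63, 5.09, 36.70 and 6.59 TPM on day 8. The r of Des with the mean log2 level of 14 skeletal muscle genes was 0.96, with group means taken off, against 0.51 with its closest member, Mcam. The muscle genes summed to 26.0 to 352 TPM at 50 mg/kg and 26.0 to 301 TPM in vehicle on day 8, 0 of 14 were called, and 6 of them were listed at 0 in some library. In Rgs5 the r with the same list was 0.04.

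**Figure D5:**
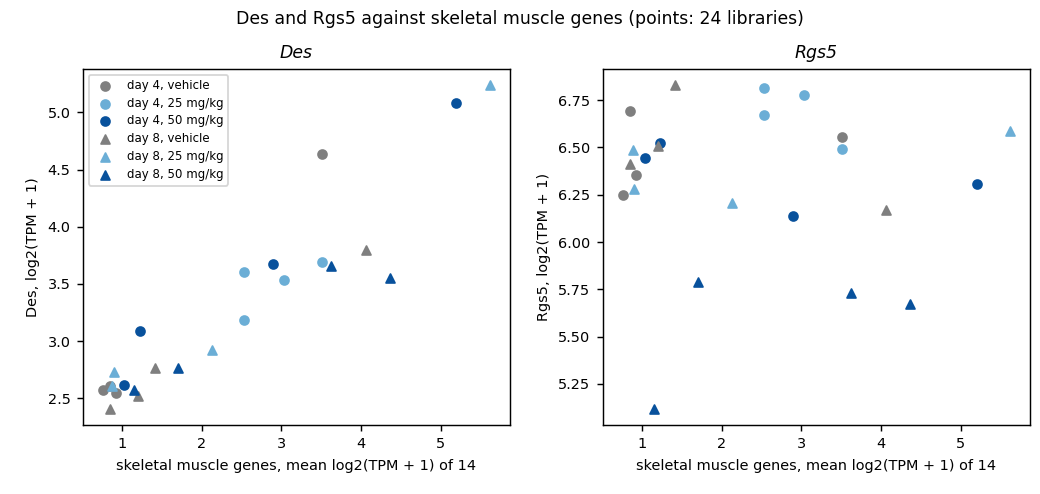
Des and Rgs5, as log2(TPM + 1), against the mean log2(TPM + 1) of 14 skeletal muscle genes in 24 libraries, with circles for day 4 and triangles for day 8. Des climbs with the muscle genes (r = 0.96 with group means off), and Rgs5 does not (r = 0.04).

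Genes of vessel signalling and of vessel subtypes outside the members give the setting of these values. Which cells of the tumour gave their RNA was not tested. Of 20 vessel signalling genes, 6 fell and 0 rose at 50 mg/kg on day 8, beside 2.02% of all genes called lower and 0.763% higher, with a median of -0.46. They included the growth factor gene Vegfa, the most abundant of the list, the peptide gene Apln (-1.04, adjusted p = 0.00305), the Notch ligand gene Dll4 (-1.20, 0.00419) and the basement membrane gene Nid2 (-0.78, 0.0134) by limma. Nid2, a gene of the vessel basement membrane, had 9.25, 5.24, 7.09 and 5.22 TPM at 50 mg/kg, and 9.96, 10.88, 11.71 and 16.14 TPM in vehicle, without overlap. On day 4, 2 of 20 fell, the placental growth factor gene Pgf (-0.69, adjusted p = 0.00124) and Apln (-0.69, 0.0216), and 1 rose, the angiopoietin-like gene Angptl4 (1.46, 1.2e-05), near the 4.31% of all genes called lower and 4.95% called higher on that day. Of 14 tested subtype genes, the capillary lipase anchor gene Gpihbp1 fell on day 8 (-1.49, adjusted p = 0.0185) and the adhesion molecule gene Vcam1, which macrophages and fibroblasts can express too, rose on day 4 (1.22, 0.00525), each 1 of 14 tested. Pdgfb, the pericyte-recruiting ligand, had 46.6 ± 4.00 TPM at 50 mg/kg and 50.8 ± 6.37 TPM in vehicle on day 8 (SD, n = 4 each).

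Some members share positions with other genes. Egfl7, Eng, Mcam and Ndufa4l2 have an expressed partner (mean of at least 1 TPM) across them on the other strand, and Eng also has 1 on its own strand. The libraries were made strand-specific, and whether strand was used in counting is not given in the sources used here. Ndufa4l2 averaged 23.7 TPM and its partner Shmt2 117 TPM, Egfl7 35.4 TPM and Agpat2 24.4 TPM, and Eng 87.3 TPM and Fpgs 32.01 TPM, so the values of these 3 members are uncertain. Mcam averaged 55.8 TPM and its partner Gm10687 1.04 TPM. The members lie on 14 chromosomes, and besides Kcnj8 and Abcc9 only Esam and Robo4 lie within 1000 kb of each other. Rgs5 lies at chr1:169655501-169695813 and Cspg4 at chr9:56865033-56899870, both on the plus strand of GRCm38.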

How the data were processed

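RNA was purified with RNeasy columns, and strand-specific SureSelect libraries were built from total RNA, per the labels' protocols. The submitters' processing notes name bcl2fastq, Trimmomatic 0.36, STAR 2.5.0c and RSEM 1.2.31 with the mouse genome mm10 (GRCm38). Annotation, parameters and use of strand in counting: not given in the sources used here. The authors deposited 1 table of TPM values for 47729 genes in 24 libraries, each summing to 999999 to 1000001. TPM keeps no read depth, so depth is unknown and no counting intervals are given. TPM is relative, so genes with high values affect those of all others.

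Values were transformed to log2(TPM + 1). The 15736 genes that reached 1 TPM in at least 4 libraries were fitted with limma 3.58.1 in R 4.3.3, with 6 group means, an intensity trend and 18 residual degrees of freedom. P-values were two-sided and Benjamini-Hochberg adjusted over all genes tested, with a threshold of 0.05. Unless another test is named, an adjusted p in the text comes from this fit. Fold changes of low genes are understated on this scale. Correlations with Pecam1 used 100000 permutations of libraries within groups (10000 under alternatives), adjusted over all 15735 other genes. Steps were tested on simulated data.

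The members and the marker lists were chosen with earlier results of these data known. All 30 members are named. Of each other list, the rule takes up to 4 called genes with the smallest adjusted p and the gene with the highest mean. Values in every library are given for members called in any comparison and for Pecam1, Cdh5, Rgs5, Pdgfrb and Des. Other members with such values, the ratios between members, and Pdgfb and other list genes outside that rule were picked once their values were known.

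Alternatives were TMM and quantile scaling, other pseudocounts and filters, the compared groups alone, library weights, the replicate number as a block, the skeletal muscle level as a covariate, and each library left out. Of the gene identifiers, 47310 matched GENCODE M21 of GRCm38, which gave coordinates, and promoters came from RefSeq.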

Additional observations from a re-analysis of the deposited data

Results flagged for a closer look

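Of 180 sets of 4 library values, for 30 members in 6 groups, 16 had 1 library whose gap to the nearest other exceeded Dixon's critical share of the group's range. Chance alone flags about 1 in 20 groups. Of the 16, 5 were in 25 mg/kg day 4 replicate 1. That library had 34.89 TPM of Emcn (others 23.16 to 23.97), 8.31 TPM of Robo4 (5.17 to 5.55), 5.71 TPM of Ptprb (2.41 to 2.95) and 14.32 TPM of S1pr1 (7.84 to 8.41). It had 9.65 TPM of Abcc9, below the others (13.91 to 14.37).

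On day 4, 50 mg/kg replicate 1 had 17.14 TPM of Esam (others 13.53 to 14.12) and 6.94 TPM of Ptprb (4.74 to 5.05), and 50 mg/kg replicate 2 had 5.88 TPM of Erg (4.62 to 4.76). Vehicle replicate 1 of day 4 had 4.13 TPM of Ptprb (others 3.09 to 3.24) and 18.02 TPM of Ndufa4l2 (28.48 to 29.78). Replicate 1 of all 3 day 4 groups thus had the highest Ptprb value of its group. It also had the highest mean log2 level of the endothelial members (3.68 in vehicle, 3.99 at 25 mg/kg and 4.03 at 50 mg/kg). The same held for the macrophage and fibroblast genes.

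In day 8 vehicle, replicate 4 had 45.51 TPM of Ecscr (others 19.72 to 23.94) and 51.30 TPM of Pdgfrb (25.10 to 28.57). Replicate 1 had 0.70 TPM of Clec14a (others 2.11 to 2.31), and replicate 3 had 3.11 TPM of Higd1b (4.75 to 5.01). Des stood out in day 4 vehicle replicate 4 at 23.84 TPM (others 4.85 to 5.11) and in 25 mg/kg day 8 replicate 3 at 36.70 TPM (5.09 to 6.59).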

How the results depend on the processing

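Of 712 values of named members under an alternative, 630 kept direction and side of the threshold, 19 were no longer past it, 62 newly passed, and 1 changed sign: Pecam1 at 50 mg/kg against vehicle on day 8, with library weights (0.0836). The cause was not tested. With library weights, called members and genes were 5 and 3205 for 50 mg/kg against vehicle on day 4, 7 and 2888 on day 8, 3 and 1263 for 50 against 25 mg/kg on day 4, 8 and 2264 on day 8, and 2 and 745 for the difference between days. There were also 1 gene for 25 mg/kg on each day and 5 for vehicle by day, and endothelial medians on day 8 were 0.0027 at 50 mg/kg and 0.24 at 25 mg/kg. In fits of the compared groups alone, with fewer libraries, there were 4 members on day 4 and 0 members and 12 genes on day 8 for 50 mg/kg against vehicle. Such fits gave 1 gene for 25 mg/kg on day 8, 1 member and 219 genes for 50 against 25 mg/kg on day 4, 1 and 77 on day 8, and 68 genes for the difference between days. With no filter, 1 member was called for 50 mg/kg on day 8. With a filter at 5 TPM there were 5, and 2 for the difference between days, and a pseudocount of 5 gave 1 there. Over 10 alternatives, genes called for 50 mg/kg against vehicle ran from 1052 to 3205 on day 4 and from 12 to 2888 on day 8. Member counts printed without the gene count of the same fit are not read as results about the members.

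Leaving out each library in turn gave 0 to 1 members and 699 to 1311 genes for 50 mg/kg on day 4, 1 to 8 and 180 to 1175 on day 8, 0 to 1 and 148 to 356 for 50 against 25 mg/kg on day 4, and 0 to 3 and 38 to 293 on day 8. The difference between days had 0 to 5 members and 92 to 601 genes. Vehicle by day and 25 mg/kg on day 4 had 0 to 1 genes. Correlation calls with Pecam1 by Pearson's r, over the 29 other members, were 11 after quantile normalization and 14 with TMM scaling or another pseudocount. These used 10000 permutations, against 100000 in the main run, so their smallest possible p was higher.

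Same-numbered libraries correlated at -0.19 to 0.42 within a day, and at -0.32 to 0.11 between the vehicle groups of day 8 and day 4. Replicate 1 had 0.15 to 0.35 within day 4, and replicate 2 had 0.33 to 0.42 within day 8. The replicate numbers were not taken as pairs, and whether they reflect a shared origin was not tested. With the number as a replicate block, 5 members passed for 50 mg/kg on day 8 (Rgs5, Kcnj8, Abcc9, Mcam, Ndufa4l2), 4 for 50 against 25 mg/kg on day 8 (Rgs5, Cspg4, Abcc9, Mcam), and 2 members (Cldn5, S1pr1) and 343 genes for the difference between days. Genes called for 50 against 25 mg/kg on day 8 ran from 77 to 2264 over 10 alternatives. The gene count under the block is not given for either dose comparison, so its member counts are no result about the members. Best matches fell on the same number in 1 to 2 of 4 libraries. Read depth is unknown.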
